A study of Mus musculus with 5 samples.

Results

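Notch genes were followed across single-cell RNA libraries of mouse liver mesenchyme. The 9 genes were chosen by name: the receptors Notch1, Notch2, Notch3 and Notch4, the ligands Jag1 and Dll4, and the target genes Hes1, Hey1 and Heyl. They are 9 of the 31053 genes in the count tables, and all 9 were found with at least 1 UMI (unique molecular identifier, 1 counted RNA molecule) in each of the 5 libraries.

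All mice were male Rosa26mTmG;Col1a1-Cre animals on the C57BL/6J background, in which GFP marks cells with past or present activity of the collagen type I promoter that drives Cre, whatever their type. One group received diethyl nitrosamine (DEN, 10 mg/kg), a liver carcinogen, at 2 weeks of age and a liquid Western alcohol diet (WAD, 3.5% v/v ethanol) for 5 months from 6 weeks. The control group received saline at the same age and chow for the same time. Non-parenchymal liver cells were sorted by GFP (Col1a1+) and by the autofluorescence of stored vitamin A (VitA), a property of hepatic stellate cells. Each diet gave 1 VitA+Col1a1+ and 1 VitA-Col1a1+ library, and DEN+WAD gave a further library labelled VitA-Col1a1-. The number of mice behind a library was not given in the sources used here. With 1 library per group there was no replicate, no p-value was computed, the group, the sort and the run cannot be told apart, and every interval below covers counting error only.

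Notch receptors are single-pass membrane proteins that are activated by ligands on a neighbouring cell. Ligand binding exposes the receptor to ADAM proteases and then to gamma-secretase, and the released intracellular domain joins the DNA-binding protein RBPJ to switch on repressors of the HES and HEY families. In blood vessels Dll4, Notch1 and Notch4 act in the endothelium, and Notch3 is the receptor of smooth muscle cells and pericytes, which surround it. In the liver Jag1 and Notch2 are best known for bile duct development.

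In the GRCm38 build (GENCODE M21) the protein-coding genes lie at chr2:26457903-26516663 (Notch1, minus strand), chr3:98013527-98150361 (Notch2, plus), chr17:32120820-32166852 (Notch3, minus) and chr17:34564268-34588503 (Notch4, plus). The ligands lie at chr2:137081456-137116644 (Jag1, minus) and chr2:119325784-119335962 (Dll4, plus). The targets lie at chr16:30064384-30067796 (Hes1, plus), chr3:8663359-8667256 (Hey1, minus) and chr4:123233556-123249875 (Heyl, plus). Genes on the opposite strand overlap Notch1, Notch3, Notch4 and Dll4, and Gm42819 and Gm42820 on the same strand overlap Notch2, so that reads of Notch2 may be shared with them.

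Of the 9 genes, 6 had a promoter entry in RefSeq (GRCm38.p6). The bases before the start of Notch3, Notch4 and Dll4 are shown because these genes are among those with the largest class differences below. Each window is read 5′ to 3′ along the gene and ends at the RefSeq start or, for Notch4, at the first annotated exon. Capitals mark matches on either strand to AGGAAG, a form of the ETS site, or to CACGCG, a site of HES proteins, and no match of the 2 motifs overlapped another.
Notch3 (chr17:32166891-32167140, minus strand): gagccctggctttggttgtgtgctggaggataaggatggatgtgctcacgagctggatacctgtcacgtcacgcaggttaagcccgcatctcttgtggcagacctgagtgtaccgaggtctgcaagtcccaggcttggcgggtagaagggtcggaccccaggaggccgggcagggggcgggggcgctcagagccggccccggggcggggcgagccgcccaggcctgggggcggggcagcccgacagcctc
Notch4 (chr17:34564045-34564267, plus strand): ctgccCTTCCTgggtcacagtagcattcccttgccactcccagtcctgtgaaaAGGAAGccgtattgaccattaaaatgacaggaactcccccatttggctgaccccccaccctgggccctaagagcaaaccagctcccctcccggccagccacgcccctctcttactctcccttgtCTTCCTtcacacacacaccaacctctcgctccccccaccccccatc
Dll4 (chr2:119325534-119325783, plus strand): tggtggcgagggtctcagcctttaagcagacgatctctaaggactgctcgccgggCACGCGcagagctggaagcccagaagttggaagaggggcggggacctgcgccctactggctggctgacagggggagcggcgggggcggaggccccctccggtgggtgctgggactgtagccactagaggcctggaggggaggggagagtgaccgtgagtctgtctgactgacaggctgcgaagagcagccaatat
The Notch4 window held AGGAAG at 3 places, and 29.5% of all 32851 promoter windows of 250 bases held it at least once. The Dll4 window held CACGCG at 1 place, against 7.62% of all windows. The RBPJ core TGGGAA (21.6% of windows), the HEY and HES site CACGTG (6.02%) and the CArG box of serum response factor (1.47%) were found in none of these 3 windows. These are matches of letters and say nothing about binding in these cells.

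The libraries held between 259 (VitA+ chow) and 10481 (VitA+ DEN+WAD) cell barcodes, with totals of 6145748 to 149936344 UMIs and medians of 9105.5 to 24077 UMIs per cell. Between 2 and 40 barcodes of a library also occurred in another one. Levels are given as CPM, the UMIs of a gene per 1000000 UMIs of the library or cell class, and are compared within a gene, not between genes. Cells were assigned to classes by 7 lists of 10 marker genes, none of them a Notch gene, plus at least 1 UMI of a gate gene. Lrat-positive mesenchymal cells (stellate or portal fibroblast list) made up 242, 341, 10114 and 1713 cells of VitA+ chow, VitA- chow, VitA+ DEN+WAD and VitA- DEN+WAD, and 3763 cells of the library labelled VitA-Col1a1-. That library had 1062 CPM of Col1a1, against 958 in VitA- DEN+WAD, so its RNA went against its label. It also held 2535 Pecam1-positive endothelial cells, 63 Epcam-positive epithelial cells, 1545 cells of the leukocyte list and 107 Myh11-positive cells (smooth muscle list). Myh11-positive cells had Col1a1 at 2073, 1662 and 3632 CPM in VitA- chow, VitA- DEN+WAD and this library. Their Lrat was at 141, 75.0 and 187 CPM. Whether they were vascular smooth muscle or other contractile mesenchymal cells was not tested. Classes under 50 cells in a library, such as the 9 Pecam1-positive cells of VitA+ chow, are given as counts only.

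Across whole libraries, Notch3 had the widest range of the receptors. Notch3 was at 11.2 CPM (95% interval 8.74 to 14.2) in VitA+ chow, 263 in VitA- chow, 11.6 in VitA+ DEN+WAD, 72.5 in VitA- DEN+WAD and 84.0 in the library labelled VitA-Col1a1-. Both VitA+ libraries were thus low, with overlapping intervals, and the 3 VitA- libraries were high. Notch1 was at 228, 94.95, 151, 138 and 122 CPM in the same order, highest in VitA+ chow and lowest in VitA- chow. Notch2 was at 29.8, 52.7, 15.8, 28.3 and 18.5 CPM, and the intervals of VitA+ chow and VitA- DEN+WAD overlapped. Notch4 was at 4.88, 4.27, 3.71, 10.7 and 12.02 CPM, with overlapping intervals among the first 3.

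Jag1, a ligand made by several mesenchymal and epithelial cells, was at 88.0, 154, 61.0, 76.2 and 48.9 CPM, highest in VitA- chow. Dll4, the endothelial ligand, was at 31.6, 15.7, 12.2, 51.0 and 43.8 CPM, and the 2 DEN+WAD libraries of the VitA- sort stood above the other 3. Hes1, a repressor induced by Notch and by other signals, was at 3595, 1136, 3343, 1813 and 887 CPM, with both VitA+ libraries above all others. Hey1 was at 50.1, 65.6, 52.7, 71.3 and 16.2 CPM and lowest in the library labelled VitA-Col1a1-. Heyl, a target of Notch3 in mural cells, was at 166, 267, 167, 166 and 59.0 CPM, so that 3 of the libraries did not differ beyond counting error.

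**Figure D1:**
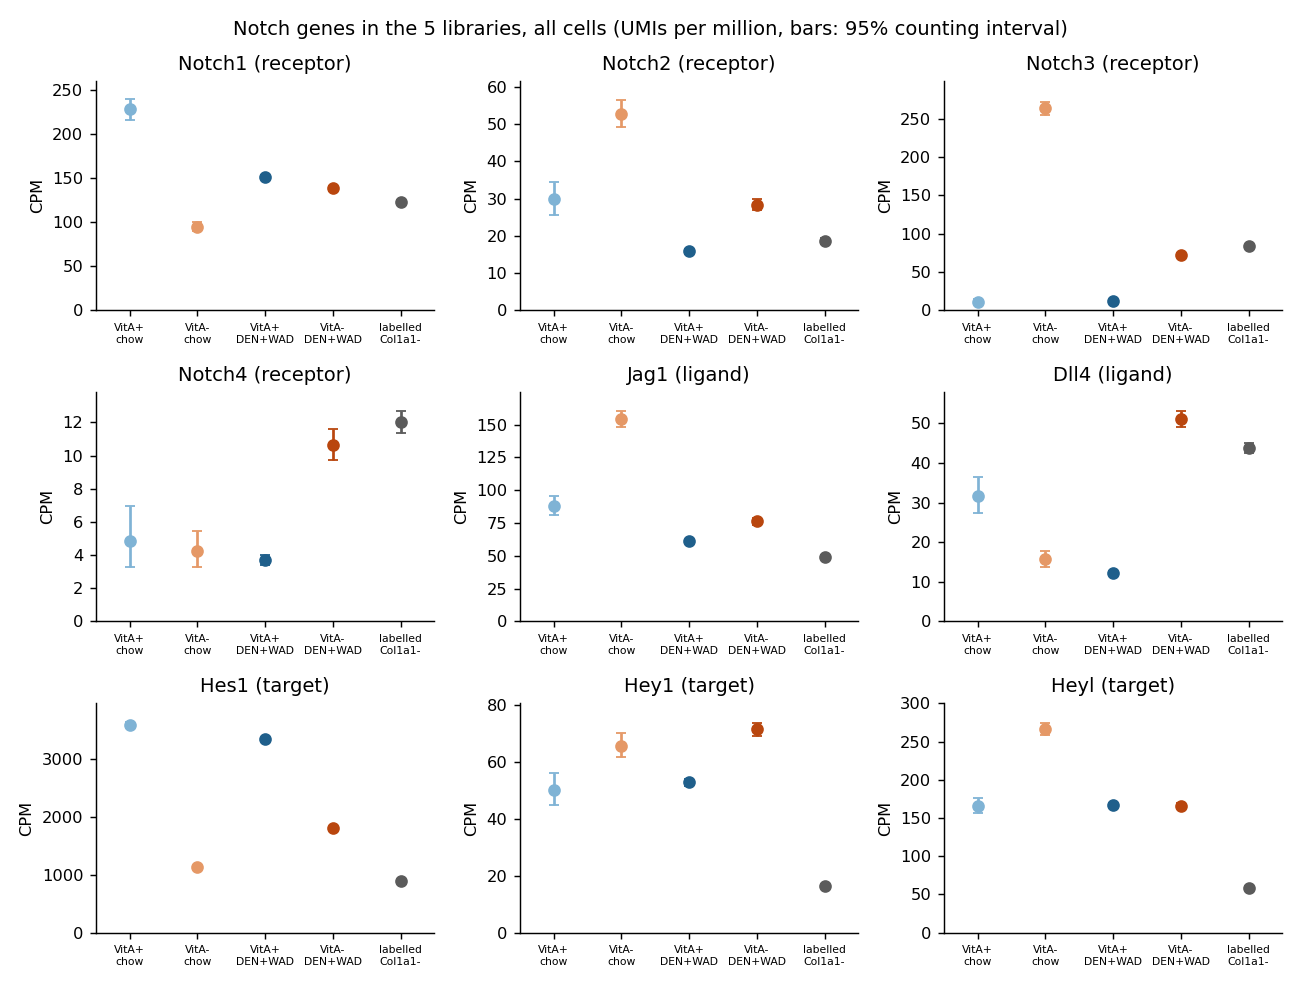
Levels of the 9 Notch genes in the 5 libraries, all cells, in CPM (y axis from 0), one panel per gene; points are single libraries, bars their 95% Poisson intervals, and "labelled Col1a1-" is the library labelled VitA-Col1a1- DEN+WAD. Notch3 is at 11.2 and 11.6 in the VitA+ libraries and at 72.5 to 263 in the others, and Hes1 is highest in the VitA+ libraries.

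The genes fell into groups by cell class. Dll4, Notch4 and Notch1 were highest in Pecam1-positive cells and Notch3 and Heyl in Myh11-positive cells. Jag1 was higher in Myh11-positive and Epcam-positive than in Lrat-positive cells of the same library, but mostly by less than 2-fold. Hes1 was found in every class. The 3 genes named first were higher by 2-fold or more in Pecam1-positive than in Lrat-positive cells in all 3 libraries with enough cells of both classes (VitA+ DEN+WAD, VitA- DEN+WAD and the library labelled VitA-Col1a1-), 3 of the 9 Notch genes each time. Of all genes with a mean of at least 5 CPM over the pair, 22.3%, 20.8% and 14.9% were that much higher in these libraries. By the same measure 4, 5 and 3 Notch genes were lower in Pecam1-positive cells, against 13.2%, 14% and 13.3% of all genes.

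Dll4 was at 310.5, 331 and 185 CPM in Pecam1-positive cells of VitA+ DEN+WAD, VitA- DEN+WAD and the library labelled VitA-Col1a1-, and at 8.43, 4.72 and 3.60 CPM in the Lrat-positive cells of the same libraries. The ratios were 36.8 (95% interval 33.2 to 40.8), 70.2 (59.4 to 83.5) and 51.4 (44.0 to 60.5). After each cell was thinned to 2000 UMIs, 43.1%, 43.9% and 31.2% of Pecam1-positive cells held a Dll4 UMI (78.0%, 87.4% and 65.9% unthinned), against 1.73%, 1.47% and 0.619% of Lrat-positive cells. In the 2 chow libraries 34 of 194 and 223 of 236 Dll4 UMIs came from 9 and 38 Pecam1-positive cells.

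Notch4, a receptor largely limited to endothelium, was at 55.9, 53.7 and 45.0 CPM in the Pecam1-positive cells of these 3 libraries and under 4 CPM in the Lrat-positive cells. Its ratios were 18.6 (14.8 to 23.3), 15.1 (12.1 to 18.8) and 13.4 (11.3 to 16.0). Notch1 was at 355, 369 and 319 CPM in Pecam1-positive cells, 2.39-, 3.28- and 3.57-fold its level in Lrat-positive cells. Notch1 was thus shared by endothelial and mesenchymal cells, whereas Notch4 stayed under 4 CPM in the Lrat-positive cells of all 5 libraries.

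Notch3 went the other way. It was at 531, 428 and 286 CPM in Myh11-positive cells of VitA- chow, VitA- DEN+WAD and the library labelled VitA-Col1a1-, and 55.3%, 58.7% and 39.8% of these cells held a Notch3 UMI at 2000 UMIs per cell (80.0%, 94.8% and 75.7% unthinned). The ratio over Lrat-positive cells was 2.25 (2.09 to 2.43) in VitA- chow, 6.997 (6.37 to 7.67) in VitA- DEN+WAD and 1.86 (1.68 to 2.06) in the library labelled VitA-Col1a1-, under 2-fold in the last. With cells that held at least 2 UMIs of another class's gate gene or of Ptprc left out of both classes, the log2 ratios were 2.86, 4.65 and 2.31. In Pecam1-positive cells Notch3 had 0 UMIs in VitA+ DEN+WAD, 3.23 CPM in VitA- DEN+WAD and 14.3 CPM in the library labelled VitA-Col1a1-. The first of these was at least 6.81-fold lower than in Lrat-positive cells with 0 set to 3 UMIs, and the others had ratios of 0.0529 and 0.0931. Epcam-positive cells held 0 Notch3 UMIs, at least 37.6-fold below the Lrat-positive cells of their library.

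Jag1 was at 216, 217 and 109 CPM in the Myh11-positive cells of the same 3 libraries and at 147, 75.4 and 76.1 CPM in the Lrat-positive cells, past 2-fold in VitA- DEN+WAD alone (ratio 2.88, 2.55 to 3.25). Heyl was at 321, 298 and 136 CPM in Myh11-positive cells, 1.17-, 1.64- and 1.28-fold its level in Lrat-positive cells. Against Lrat-positive cells, Myh11-positive cells had 1, 2 and 0 Notch genes at least 2-fold higher (4.65%, 6.19% and 4.53% of all genes) and 0, 1 and 2 lower (4.36%, 5.92% and 4.85%). Those lower were Hes1 in both DEN+WAD libraries (ratios 0.338 and 0.409) and Notch1 in the library labelled VitA-Col1a1- (0.487). Heyl and Notch3 were the 2 Notch genes with the largest folds below Lrat-positive cells in the Pecam1-positive cells of all 3 libraries, with Heyl ratios of 0.0774, 0.0389 and 0.101.

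Epcam-positive cells, measured in the library labelled VitA-Col1a1- alone, had Jag1 at 108 CPM (85.2 to 134), Hes1 at 1777 and Notch2 at 36.8 (24.3 to 53.5), next to 76.1, 1066 and 21.7 CPM in Lrat-positive cells. Notch1, Notch3, Hey1 and Heyl were at least 2-fold lower there than in Lrat-positive cells (4 of the 7 with enough UMIs, against 16.2% of all genes) and none was higher (22.8%). Dll4 and Notch4 had 0 UMIs in these 63 cells, where 3 UMIs would be 4.09 CPM and the exact interval reaches 5.03 CPM, and the Lrat-positive cells did not exceed either level. Hes1 was thus found in all 4 classes, from 436 CPM in Myh11-positive cells of the library labelled VitA-Col1a1- to 3361 CPM in Lrat-positive cells of VitA+ DEN+WAD among the DEN+WAD libraries.

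**Figure D2:**
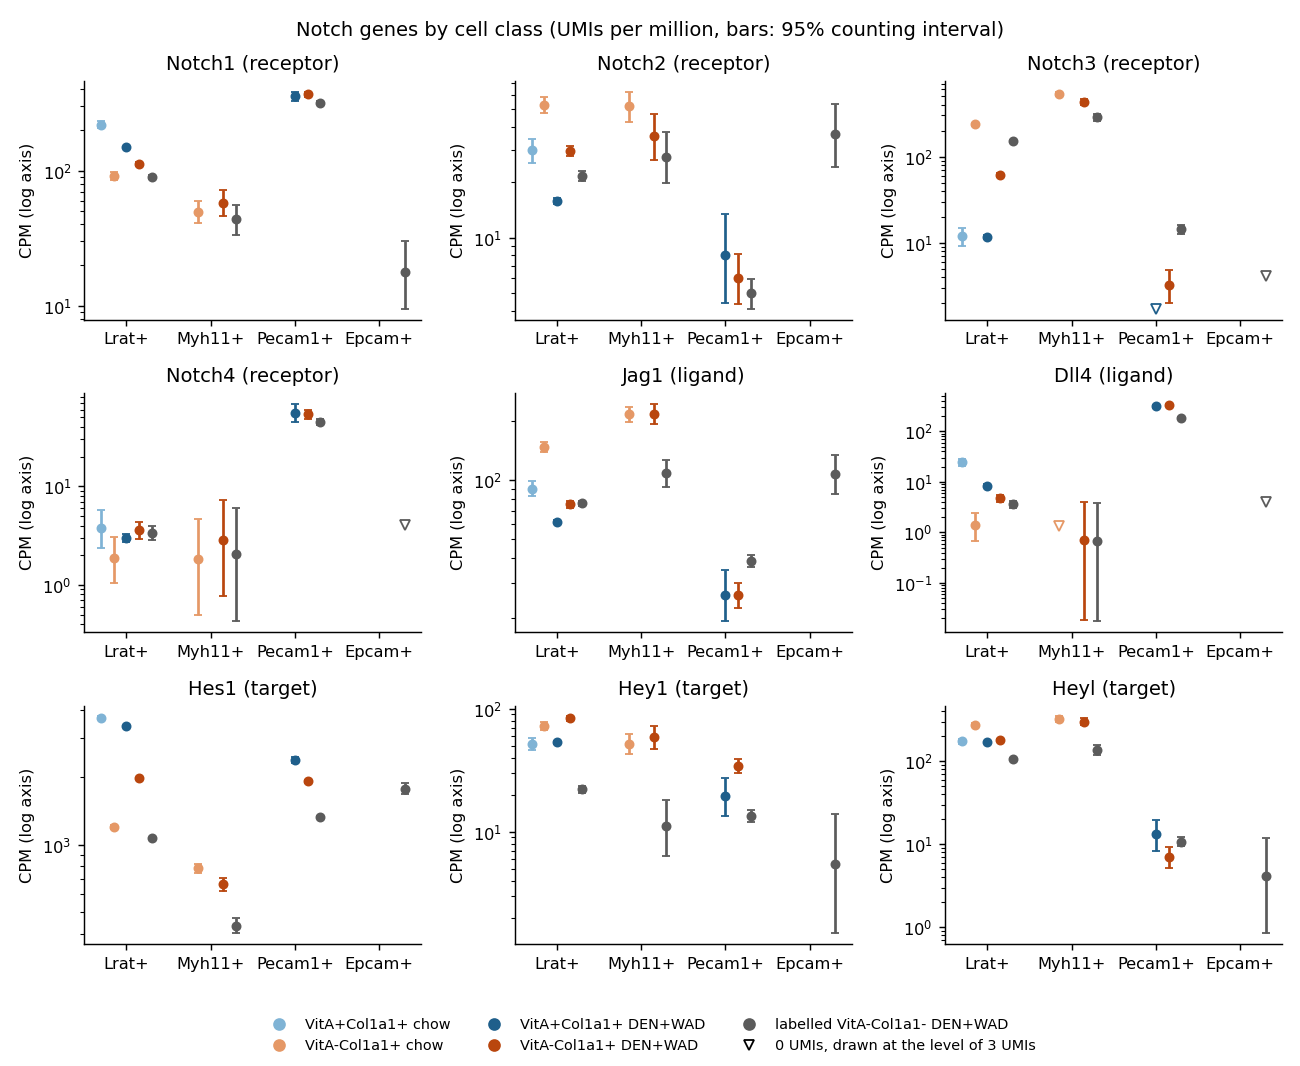
Levels of the 9 Notch genes in Lrat-positive mesenchymal, Myh11-positive, Pecam1-positive and Epcam-positive cells, in CPM on a log axis; colours are libraries, bars 95% Poisson intervals, and open triangles mark 0 UMIs drawn at the level of 3 UMIs. Dll4 and Notch4 are highest in Pecam1-positive cells, Notch3 is highest in Myh11-positive cells, and Hes1 is present in all 4 classes.

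The sort gates were compared first in chow, over all cells. Notch3 was 23.5-fold higher in VitA- than in VitA+ cells (18.5 to 30.2) and was the one Notch gene past 2-fold upwards, where 10.5% of 10168 genes were. Hes1 (ratio 0.316), Notch1 (0.417) and Dll4 (0.499) were lower, 3 of 8 Notch genes with enough UMIs, where 5.37% of genes were. Jag1 (1.75), Notch2 (1.77), Heyl (1.61) and Hey1 (1.31) were higher by less than 2-fold. Notch4 did not differ beyond counting error (0.874, 0.558 to 1.398). With each cell thinned to 2000 UMIs, Notch2, Jag1, Hey1 and Heyl also passed 2-fold (log2 ratios 1.22, 1.04, 1.14 and 1.003) and Dll4 did not (-0.70). These thinned ratios are given without an interval. In VitA+ chow only 14, 17 and 13 of 255 thinned cells held a UMI of Notch2, Hey1 and Dll4.

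Restricted to Lrat-positive cells, the same 4 genes passed 2-fold in chow among those with a mean of at least 5 CPM. Notch4 had too low a mean to be counted, whatever its ratio. Notch3 was at 236 CPM in VitA- and 11.9 CPM in VitA+ cells (ratio 19.9, 15.6 to 25.7), against 10.4% of genes higher. Hes1 was at 1199 and 3678 CPM (0.326), Notch1 at 91.1 and 219.5 CPM (0.415, 0.378 to 0.455) and Dll4 at 1.37 and 24.2 CPM (0.0566, 0.0276 to 0.104), against 5.55% of genes lower. The Dll4 values rest on 11 and 141 UMIs. Jag1 (1.63), Notch2 (1.77), Heyl (1.59) and Hey1 (1.402) again lay between 1 and 2. Thinned to 2000 UMIs, Notch2 (log2 ratio 1.23) and Hey1 (1.09) also passed 2-fold, and Notch1 was just short of it (-0.97). These ratios have no interval, and Notch2 and Hey1 had means of only 0.0539 and 0.0664 UMIs in the 241 thinned VitA+ cells.

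In DEN+WAD the gates lay closer together for Notch3, Notch1 and Hes1. Over all cells Notch3 was 6.26-fold higher in VitA- cells (5.91 to 6.63), Dll4 4.16-fold (3.92 to 4.42) and Notch4 2.87-fold (2.54 to 3.24), 3 of 9 Notch genes where 8.64% of 9905 genes were that much higher. No Notch gene was 2-fold lower, where 1.65% of genes were, and Hes1 had a ratio of 0.542. In Lrat-positive cells Notch3 alone stayed past 2-fold, at 61.2 against 11.7 CPM (ratio 5.25, 4.91 to 5.60), where 4.5% of genes were higher and 0.939% lower. Dll4 there was on the other side, at 4.72 against 8.43 CPM (0.560, 0.469 to 0.665), and Notch4 did not differ beyond counting error (1.19, 0.956 to 1.47). Notch1 (0.757) and Hes1 (0.587) were lower in VitA- cells, Notch2 (1.87), Hey1 (1.57) and Jag1 (1.23) higher, and Heyl was nearly level (1.07).

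**Figure D3:**
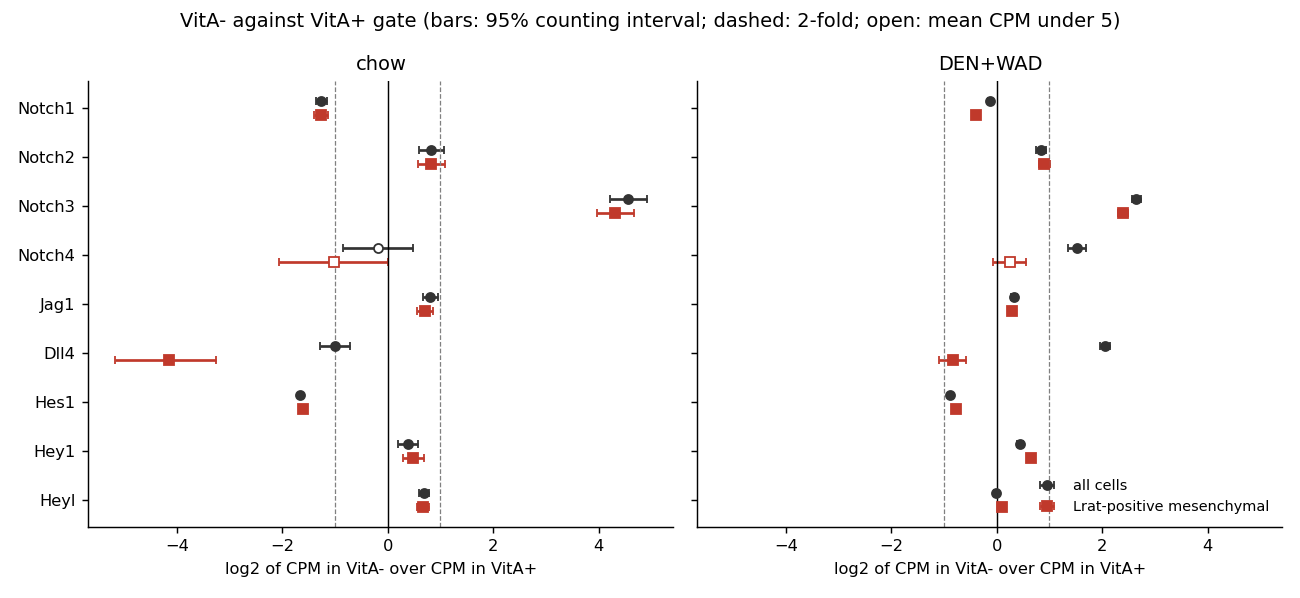
log2 of the level in the VitA- over the VitA+ library (x axis) for the 9 Notch genes in chow (left) and DEN+WAD (right), over all cells (circles) and Lrat-positive cells (squares); bars are 95% counting intervals, dashed lines mark 2-fold and open symbols a mean under 5 CPM. Notch3 lies at 4.55 and 4.31 in chow and at 2.65 and 2.39 in DEN+WAD, and Dll4 in DEN+WAD lies at 2.06 over all cells but at -0.84 in Lrat-positive cells.

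The class that held the UMIs shows what the whole-library values of Dll4 and Notch4 were made of. In VitA- DEN+WAD 92.9% of Dll4 and 71.9% of Notch4 UMIs lay in Pecam1-positive cells, which held 14.3% of all UMIs. In VitA+ DEN+WAD these cells held 1.17% of all UMIs, 29.6% of Dll4 and 17.6% of Notch4. Dll4 UMIs were thus mostly in Lrat-positive cells in both VitA+ libraries (72.7% in chow, 67.5% in DEN+WAD) and hardly in the others (4.66%, 6.06% and 3.52%). Notch3 UMIs came from Lrat-positive cells for 100% and 98.7% in the VitA+ libraries, and in VitA- chow for 47.9%, with 29.5% from Myh11-positive cells.

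Dll4 in Lrat-positive cells was set beside the endothelial markers measured in the same cells. In VitA+ chow these cells had 24.2 CPM of Dll4 with 1.89 of Pecam1 and 0.344 of Cdh5, and in VitA+ DEN+WAD 8.43 with 0.932 and 0.667. In the Pecam1-positive cells of VitA+ DEN+WAD Dll4 was at 310.5, Pecam1 at 585 and Cdh5 at 737 CPM. The part of endothelial RNA in the Dll4 level of Lrat-positive cells was not tested. Among Lrat-positive cells with 0 Pecam1 UMIs, a selection added after seeing the data, Dll4 was at 25.0, 1.44, 8.29, 3.86 and 1.17 CPM in VitA+ chow, VitA- chow, VitA+ DEN+WAD, VitA- DEN+WAD and the library labelled VitA-Col1a1-. The selection kept 233 of 242 Lrat-positive cells in VitA+ chow and 10036 of 10114 in VitA+ DEN+WAD. The levels of these libraries could thus hardly change, and the selection cannot show the source of the Dll4 RNA. The whole endothelial list summed to 804 CPM in VitA+ chow and 459 in VitA- chow Lrat-positive cells, with 3 of 10 genes higher and 6 lower in VitA- and Emcn at 0 in both, and to 754 and 782 CPM in DEN+WAD, with 8 of 10 higher and 2 lower in VitA-.

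**Figure D4:**
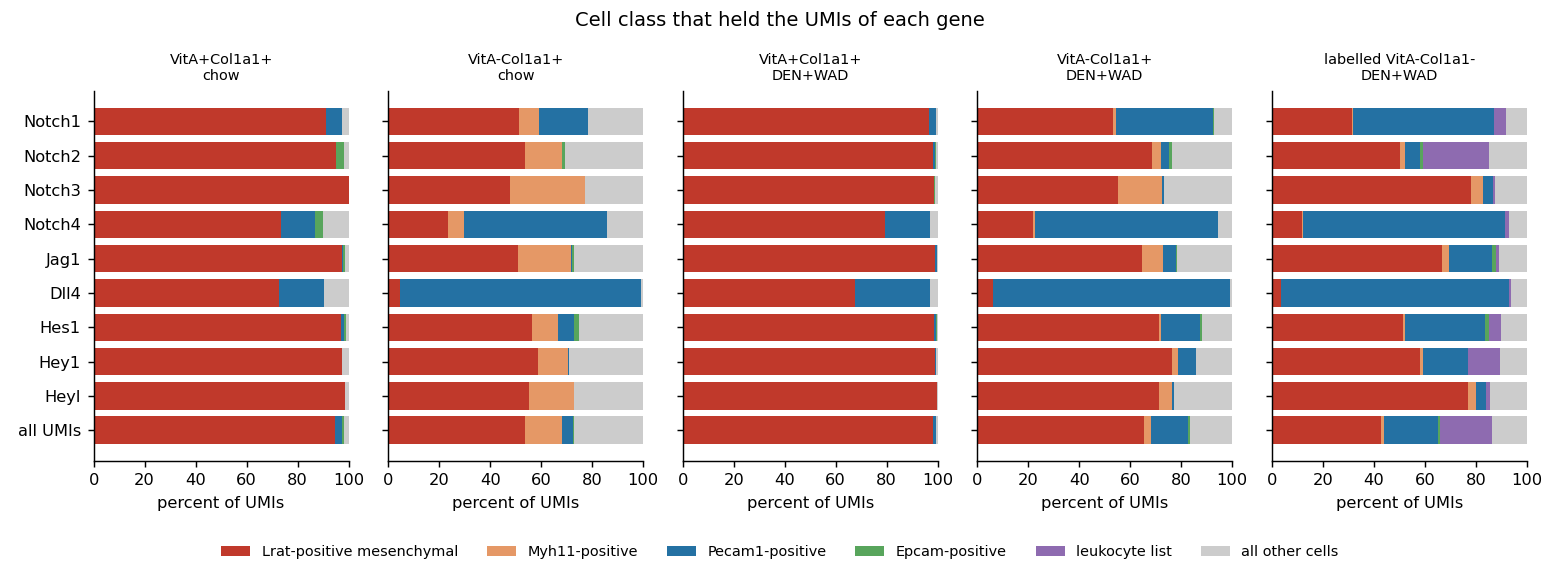
Percent of the UMIs of each Notch gene, and of all UMIs (bottom bar), that lay in each cell class, one panel per library. Dll4 and Notch4 UMIs are mostly in Pecam1-positive cells in the 3 VitA- libraries, and Notch3 UMIs mostly in Lrat-positive and Myh11-positive cells.

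The Lrat-positive cells of the 2 gates were not alike in other respects. In chow the smooth muscle list summed to 964 CPM in VitA+ and 2990.5 in VitA- cells, with 9 of 10 genes higher in VitA- and Cnn1, Actg2, Pln and Myocd at 0 in VitA+. The portal fibroblast list summed to 52.1 and 3930 CPM, with 10 of 10 higher, and the stellate list to 49498 and 14694, with 10 of 10 lower. In DEN+WAD the smooth muscle list summed to 1642 and 2981 CPM (9 of 10 higher), the portal fibroblast list to 102 and 1083 (10 of 10 higher) and the stellate list to 51520 and 35456 (10 of 10 lower). Myh11 itself was at 23.7 and 189 CPM in chow and at 25.3 and 67.2 CPM in DEN+WAD.

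Without any cell that held a Myh11 UMI, a selection added after seeing the data, the Notch3 difference between the gates remained past 2-fold. In chow it stood at 68.1 CPM in 122 VitA- cells and 2.25 CPM in 188 VitA+ cells (log2 ratio 4.92, from 4.31 in all Lrat-positive cells), with 10 UMIs on the VitA+ side. In DEN+WAD it stood at 13.7 CPM in 1317 and 3.69 CPM in 8333 cells (log2 ratio 1.89, from 2.39). Within each library, Lrat-positive cells with at least 2 Myh11 UMIs had far more Notch3 than those with none: 395 against 68.1 CPM in VitA- chow, 82.0 against 3.69 in VitA+ DEN+WAD, 263 against 13.7 in VitA- DEN+WAD and 297 against 41.5 in the library labelled VitA-Col1a1-. Jag1 and Heyl were higher and Hes1 lower in the cells with Myh11 in all 4 of these libraries. Hes1 was at 863 against 1631, 2486 against 3483, 1259 against 2131 and 801 against 1307 CPM in that order.

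**Figure D5:**
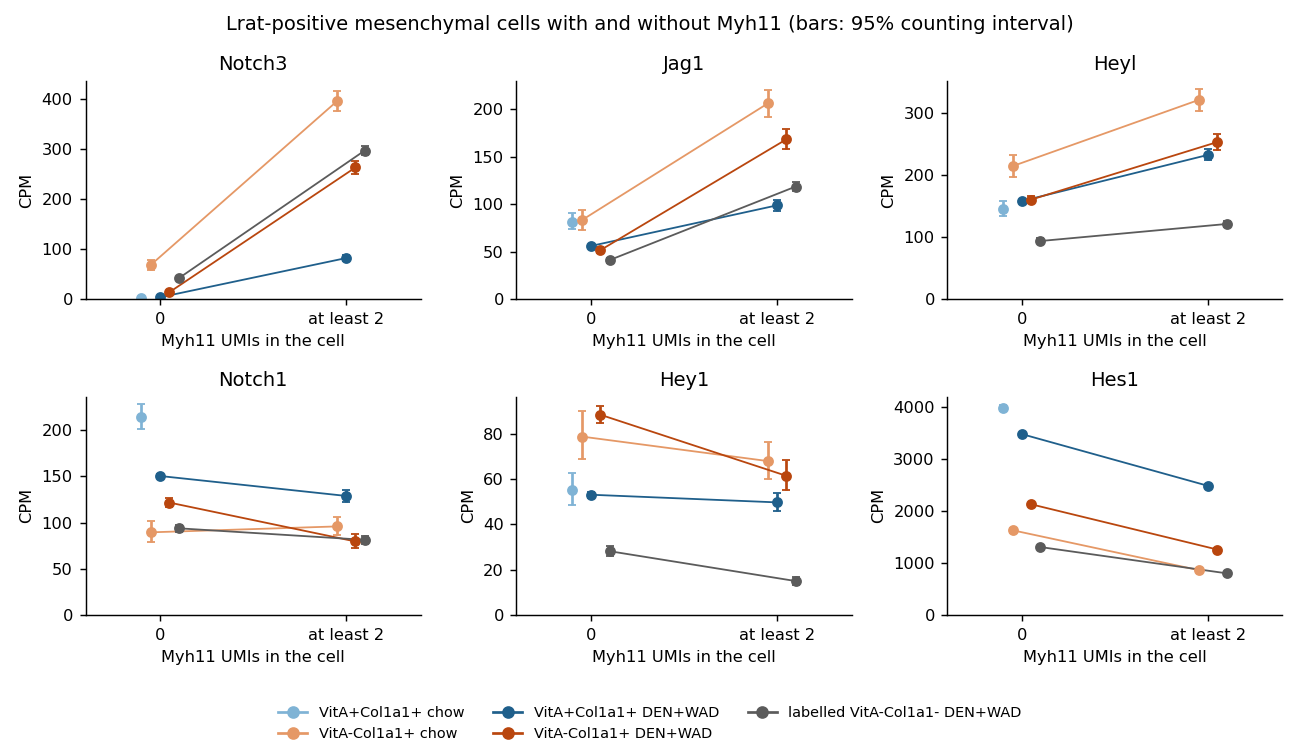
Levels of 6 Notch genes in Lrat-positive cells with 0 or at least 2 Myh11 UMIs, in CPM (y axis from 0); colours are libraries, bars 95% Poisson intervals, and VitA+ chow has no right-hand point because it held under 50 such cells. Notch3, Jag1 and Heyl are higher and Hes1 is lower on the right in all 4 libraries with both points.

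The Myh11 split used unthinned UMIs, whose number depends on the depth of a cell, and was not repeated at a fixed depth. Lrat-positive cells were instead split by Notch3 at 2000 UMIs per cell. Those with a Notch3 UMI had 2.27-, 2.28-, 3.24- and 2.68-fold the Jag1 of those without in VitA- chow, VitA+ DEN+WAD, VitA- DEN+WAD and the library labelled VitA-Col1a1-. Their Heyl was 1.29- (0.936 to 1.76), 2.12-, 1.495- and 1.45-fold, the first of these not beyond counting error. Their Hes1 was 0.497-, 0.620-, 0.540- and 0.613-fold and their Myh11 4.19-, 9.80-, 11.1- and 3.93-fold. Cells with a Notch1 UMI differed less, with Jag1 ratios of 0.837, 1.11, 0.933 and 1.07 and Hes1 ratios of 0.906, 1.03, 1.04 and 1.08.

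Hes1 was set beside a list of 12 immediate early and heat shock genes, which respond to cell dissociation among other stresses. Over all cells that list summed to 36006, 18397, 31587, 25159 and 15150 CPM in VitA+ chow, VitA- chow, VitA+ DEN+WAD, VitA- DEN+WAD and the library labelled VitA-Col1a1-, the same order of libraries as for Hes1. In Lrat-positive cells it summed to 36652 and 19236 CPM in VitA+ and VitA- chow, with 10 of 12 genes lower in VitA-, and to 31755 and 27122 CPM in DEN+WAD. Its part in the Hes1 difference was not tested.

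Diet was compared within each gate. In the VitA+ gate DEN+WAD and chow differed by less than 2-fold for 7 of 8 Notch genes over all cells. Dll4 was lower in DEN+WAD, at 12.2 against 31.6 CPM (ratio 0.388, 0.334 to 0.452), where 3.11% of genes were lower and 0.97% higher. In Lrat-positive cells Dll4 was at 8.43 against 24.2 CPM (0.348, 0.292 to 0.417), where 2.1% of genes were lower and 1.09% higher. Notch3 (0.984, 0.773 to 1.27), Heyl (0.980, 0.920 to 1.04) and Hey1 (1.03, 0.919 to 1.16) did not differ beyond counting error in these cells, and Notch1 (0.677), Notch2 (0.530) and Jag1 (0.680) were lower in DEN+WAD by less than 2-fold.

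In the VitA- gate Notch3 and Jag1 were lower in DEN+WAD than in chow over all cells (ratios 0.275 and 0.494, against 4.94% of genes) and Notch4 and Dll4 were higher (2.50 and 3.24, against 4.39% of genes). Thinned to 2000 UMIs, Notch4 was under 2-fold (log2 ratio 0.59, from 1.32) and Notch2 passed 2-fold downwards (-1.51). The Pecam1-positive class held 14.3% of UMIs in the DEN+WAD and 4.24% in the chow library of this gate. In Lrat-positive cells only Notch3 passed 2-fold among genes with a mean of at least 5 CPM, at 61.2 against 236 CPM (0.260, 0.243 to 0.277), where 6.74% of genes were lower and 3.03% higher. Dll4 was higher in DEN+WAD there (log2 ratio 1.78), but its mean was under 5 CPM. Jag1 was just short of it (0.512, 0.477 to 0.550), Notch2 (0.560) and Heyl (0.660) were lower, and Notch1 (1.24) and Hes1 (1.64) higher. The smooth muscle list summed to 2981 CPM in DEN+WAD and 2990.5 in chow in these cells, and the portal fibroblast list to 1083 and 3930.

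Of the 45 other genes of the pathway that were looked at, 33 had enough UMIs in the chow comparison of gates, and 4 were higher and 2 lower in VitA- cells by 2-fold or more. Of all genes 10.5% were higher and 5.37% lower, so that these counts were near the share over all genes. Nrarp, a target that limits Notch signalling, was at 33.7 against 1.63 CPM (20.7-fold, 11.2 to 43.4). Hey2, a further HEY repressor, was 3.01-fold higher, Numbl, a relative of the Notch antagonist Numb, 3.13-fold, and the DNA-binding partner Rbpj 2.17-fold. Psen2, a catalytic subunit of gamma-secretase (0.291), and Neurl3, a ubiquitin ligase of the neuralized family (0.181), were lower. All 6 also passed 2-fold in Lrat-positive cells, where the co-activator Maml3 was lower as well (0.484), next to 10.4% of all genes higher and 5.55% lower. In those cells Nrarp had 155 UMIs (19.3 CPM) in VitA- and 1 UMI (0.172 CPM) in VitA+, a ratio of 112 with an interval of 19.9 to 4469.

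In DEN+WAD 34 of these 45 genes were measured well enough, and Nrarp (16.0-fold, 14.2 to 18.0) and the fringe glycosyltransferase Lfng (19.5-fold, 15.7 to 24.5) were higher in VitA- cells. Of all genes 8.64% were higher and 1.65% lower. In Lrat-positive cells of DEN+WAD none of 32 passed 2-fold (4.5% of all genes higher, 0.939% lower), and Nrarp, at 7.84 against 0.483 CPM, had too low a mean to be counted. Between diets in Lrat-positive VitA- cells, Hey2 (0.376), Nrarp (0.406), Numbl (0.458) and Rbpj (0.497) were lower and Neurl3 (3.34) higher in DEN+WAD, 5 of 33 genes. Of all genes 6.74% were lower and 3.03% higher in that comparison. None of 32 passed 2-fold between diets in the VitA+ gate. The median log2 ratio of the pathway genes stayed within 0.20 of 0 in all 4 comparisons of gates and all 4 of diets.

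Pecam1-positive and Lrat-positive cells differed in more of these genes than the gates did, and likewise in more of all genes. In the library labelled VitA-Col1a1- 10 of 36 were higher and 5 lower, next to 14.9% and 13.3% of all genes. The ligand Dll1 was at 20.0 against 0.752 CPM, the fringe enzymes Mfng at 31.8 against 0.553 and Lfng at 21.05 against 1.66 CPM, and Nrarp at 74.8 against 3.34 CPM. The proteases Adam10 (2.37-fold) and Adam17 (2.38-fold), the ubiquitin ligase Mib1 (2.73-fold) and Numb (3.08-fold) were higher too, and Hey2 (0.107), Dtx4 (0.0820) and Rbpj (0.492) were lower. In VitA+ DEN+WAD 10 of 36 and in VitA- DEN+WAD 11 of 36 were higher, next to 22.3% and 20.8% of all genes. Dll1, Adam10, Adam17, Lfng, Mfng, Mib1, Numb, Kat2b and Nrarp were among them in all 3 libraries.

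Myh11-positive cells had 1, 4 and 0 of these genes at least 2-fold above the Lrat-positive cells and 0, 3 and 2 below, of 33, 35 and 32 measured in VitA- chow, VitA- DEN+WAD and the library labelled VitA-Col1a1-. Of all genes 4.65%, 6.19% and 4.53% were higher and 4.36%, 5.92% and 4.85% lower. Nrarp was 2.74-fold higher than in Lrat-positive cells in VitA- chow, and in VitA- DEN+WAD Nrarp (9.93-fold), Lfng (4.601-fold, 2.25 to 8.66), Hey2 (2.48-fold) and Rbpj (2.14-fold) were higher. Nrarp in Myh11-positive cells was at 52.8 and 77.9 CPM in these libraries and at 5.53 CPM, from 8 UMIs, in the library labelled VitA-Col1a1-. Epcam-positive cells had 3 of 33 genes higher and 4 lower (Hey2, Numbl, Rbpj and Numb), next to 22.8% and 16.2% of all genes. Those higher were Hes6 (4.56-fold), Kat2b (2.15-fold) and Dtx1, with 10 against 2 UMIs.

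Pecam1-positive cells of the library labelled VitA-Col1a1- were divided by 2 lists of 8 genes into 2321 sinusoidal and 145 other vascular cells, fewer than 50 of the latter being found elsewhere. Jag1 was at 143 CPM in other vascular and 28.2 CPM in sinusoidal cells (5.07-fold, 4.28 to 5.98). Hey1 (2.77-fold, 1.96 to 3.83), Notch3 (2.23-fold, 1.55 to 3.13) and Heyl (2.14-fold, 1.39 to 3.19) were also higher, 4 of 8 Notch genes where 6.75% of genes were, and none was lower (5%). Dll4 (1.09, 0.955 to 1.23), Notch1 (1.07, 0.966 to 1.17) and Notch4 (1.06, 0.806 to 1.37) did not differ beyond counting error. The Notch3 and Heyl values of the other vascular cells rest on 39 UMIs in 10 cells and 28 UMIs in 6 cells. Heyl was thus found in 4.14% of other vascular and 3.96% of sinusoidal cells, and Notch3 in 6.90% and 3.83%. Mesenchymal genes were also measured in these cells, with Col1a1 at 330 and 164 CPM, Lrat at 63.2 and 106.1 CPM and Myh11 at 19.3 and 15.5 CPM in the other vascular and the sinusoidal cells, and their part in the Notch3 and Heyl differences was not tested. Of 35 other pathway genes 2 were higher and 2 lower: the ligands Jag2 (15.2-fold, 6.90 to 33.3) and Dll1 (3.13-fold, 2.39 to 4.04) were higher in other vascular cells, and Aph1b, a subunit of gamma-secretase (0.211), and Kat2b, an acetyltransferase (0.488), lower.

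Genes with the most similar pattern were looked for over 12 class-by-library columns of at least 50 cells and 10520 genes, by Pearson's r of log2(CPM + 1). The columns share libraries and classes, so that r is a description. Notch3 was most like Lmod1 (0.986), Myh11 (0.980) and Tmem119 (0.979), the first 2 of which are on the smooth muscle list that set the classes. Heyl was most like Adamtsl5 (0.991), Ryk (0.990) and Mamdc2 (0.987), and Jag1 like Twsg1 (0.975), Maoa (0.963) and Trabd2b (0.957). Notch4 was most like Npr1 (0.994), Zdhhc20 (0.992) and Elk3 (0.989), and Dll4 like Mapk12 (0.986), Tecpr1 (0.984) and Mtmr2 (0.982).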

How the data were processed

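Single-cell RNA was measured in 5 libraries, 1 per group, sorted from mouse livers. The deposited files hold UMI counts per gene and cell barcode, which the authors made with Cell Ranger against mm10. Per the file headers the version was 3.1.0 for the 4 Col1a1+ libraries and 6.1.2 for the library labelled VitA-Col1a1-, so that the pipeline version cannot be told apart from that group. The labels name both the v2 and the v3.1 kit, and no further filter on cells was applied here (the lowest barcode held 500 UMIs).

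The 9 genes and all gene lists were chosen with earlier results of these data known. UMIs were summed per library and class and divided by the total to give CPM, with exact Poisson intervals (95%). Ratios have conditional binomial intervals, and shares of cells have Clopper-Pearson intervals after thinning to 2000 UMIs. A cell took the class of the list of 10 genes with most genes found (at least 3, no tie) if it held at least 1 UMI of Lrat, Myh11, Pecam1 or Epcam. A gene counted as higher or lower at 2-fold or more with a mean of at least 5 CPM over both sides, and a value of 0 was set to 3 UMIs. With 1 library per group no p-value was computed. Named genes were the 9 Notch genes, those of 45 pathway genes past 2-fold, the 3 genes most like each of 5 Notch genes, and the gate genes with Col1a1. Genes added to the description (Cdh5, Emcn, Ptprc and smooth muscle genes at 0) were named after their values were seen. No doublet caller was run, and leaving out the 5% of cells with the most UMIs stands in for it.

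Gene positions came from GENCODE M21, in which 30934 of 31053 identifiers (99.6%) were found, and promoters from RefSeq (GRCm38.p6). The fold calls were tested on simulated counts: 134 of 134 genes set to 3- or 4-fold were recovered among 10141 genes in chow and 134 of 134 among 9913 in DEN+WAD, with 0% of unchanged genes called. The simulated counts held Poisson noise only. They had no variation between mice, sorts or runs, so the simulation checks the calculation and cannot give a rate of false calls between real libraries. Python 3.11.15, numpy 2.4.6, scipy 1.17.1, pandas 2.3.3 and matplotlib 3.10.9 were used, and edgeR 4.0.16 in R 4.3.3 for TMM factors alone.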

Additional observations from a re-analysis of the deposited data

Results flagged for a closer look

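For 3 genes the 2 diets or the 2 gates moved in opposite directions beyond counting error, and these differences were not tested, since each group is 1 library. Notch4 also changed direction over all cells, but with overlapping intervals between diets in the VitA+ gate and between gates in chow. All values below are log2 ratios. Notch1 in DEN+WAD against chow was at -0.59 in the VitA+ and 0.54 in the VitA- gate over all cells, and at -0.56 and 0.31 in Lrat-positive cells. Hes1 was at -0.10 and 0.67 over all cells and at -0.13 and 0.72 in Lrat-positive cells. Dll4 was at -1.37 and 1.70 over all cells and at -1.52 and 1.78 in Lrat-positive cells, the last from 147 and 11 UMIs. Between the gates, Dll4 in VitA- against VitA+ cells was at -1.004 in chow and 2.06 in DEN+WAD over all cells, where Pecam1-positive cells held 94.5% of Dll4 UMIs in VitA- chow and 92.9% in VitA- DEN+WAD.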

How the results depend on the processing

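All 50 member values past 2-fold kept their sign under every one of the 11 settings they were recomputed with, and 161 of 178 counts of called Notch genes stayed within 1.5 times. Of 729 recomputed member values, past 2-fold or not, 201 moved beyond their counting interval and 528 did not. The 17 counts of called Notch genes that did not stay within 1.5 times follow. With cells thinned to 2000 UMIs the count higher in VitA- cells went from 1 to 5 in chow over all cells and from 1 to 3 in Lrat-positive cells (Notch2 and Hey1), and in the VitA- gate between diets the count higher over all cells went from 2 to 1 (Notch4, 0.59) and the count lower in Lrat-positive cells from 1 to 3 (Notch2 and Jag1). With TMM factors the count lower in VitA- DEN+WAD over all cells went from 0 to 1 (Hes1, log2 -1.09) and that lower in DEN+WAD against VitA- chow from 2 to 1 (Jag1, -0.94). In Lrat-positive cells of DEN+WAD the count lower in VitA- went from 0 to 1 without mixed barcodes (cells with at least 2 UMIs of another class's gate gene or Ptprc) and from 0 to 1 with 0 Pecam1 UMIs, Dll4 in both (-1.01 and -1.10). Between diets in Lrat-positive VitA- cells the count lower went from 1 to 2 with a mean over cells, without the top 5% of cells by UMIs and with the stellate list only (Jag1, at -1.04, -1.04 and -1.03), and the count higher from 0 to 1 with no minimum CPM. For Myh11-positive cells the count higher went from 1 to 2 in VitA- chow and from 0 to 2 in the library labelled VitA-Col1a1- without mixed barcodes, and from 0 to 1 there without the top 5%, and the count lower from 1 to 2 in VitA- DEN+WAD with at least 2 UMIs of the gate gene (Notch1, -1.05). For Epcam-positive cells the count higher went from 0 to 1 without mixed barcodes (Jag1, 1.15). The cause was not tested. For Myh11-positive cells, leaving out mixed barcodes drops Lrat-positive cells with at least 2 Myh11 UMIs from the other side, so that a higher Notch3 ratio is built in. The selections by 0 Myh11 or 0 Pecam1 UMIs were chosen after seeing the data. No paired analysis was possible because each group is 1 library, and for the same reason no replicate could be left out. Depth limits Dll4 and Notch4 in chow, with 11 and 15 UMIs in the Lrat-positive cells of VitA- chow.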
